A study of Mus musculus with 4 samples.

Results

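The Fc receptor genes of the myeloid lineage were followed across the 4 libraries of the study. All 7 genes chosen by name were present among the 4167 complete lines of the expression table: Fcer1g, Fcgr2b, Fcgr3, Fcgr4, Fcrla, Fcrlb and Fcer1a. The libraries came from long-term haematopoietic stem cells (LT-HSCs), the self-renewing cells at the top of blood formation, which were sorted by flow cytometry from mouse tibia and femur marrow. There were 2 libraries from wild-type (WT) mice and 2 from ATF4 KO mice, which the series' design text calls conditional knockouts of ATF4, a transcription factor of the integrated stress response. The deleting Cre, the treatment, the age and the number of animals behind each library are not given in the labels, so p-values measure the spread between these libraries only. Polyadenylated RNA was made into libraries by a protocol derived from Smart-seq2, a method for small RNA amounts.

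Fc receptors bind the constant part of antibodies and link antibody recognition to the response of the cell that carries them. Most activating receptors pair a ligand-binding alpha chain with the common gamma chain encoded by Fcer1g, whose immunoreceptor tyrosine-based activation motif recruits the kinase Syk. In myeloid cells the alpha chains of Fcgr3 (CD16) and Fcgr4 bind IgG, and in mast cells and basophils Fcer1a binds IgE. Fcgr2b (CD32) is the inhibitory IgG receptor and carries its own inhibitory motif. Fcrla and Fcrlb encode Fc receptor-like proteins that stay inside the cell and are known mainly from B cells. An antibody that sees the products of Fcgr3 and Fcgr2b together is commonly used in marrow to mark granulocyte-macrophage progenitors and to tell progenitor classes apart. The sorting gate itself is not given in the sources used here.

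The genes lie on chromosome 1 of GRCm38, and 6 of them form a cluster of 327 kb in the order Fcrlb (170907273 to 170912941, minus strand), Fcrla (170917576 to 170927583, minus), Fcgr2b (170958617 to 170976547, minus), Fcgr4 (171018920 to 171029761, plus), Fcgr3 (171051174 to 171064935, minus) and Fcer1g (171229572 to 171234365, minus). Fcer1a (173221284 to 173227214, minus) lies apart from them. The sequences just upstream of Fcer1g and of Fcer1a are shown because both chains belong to the high-affinity IgE receptor and only Fcer1g had reads in ATF4 KO. They are RefSeq promoter sequence on GRCm38.p6, minus strand, 5′ to 3′, and stop before the first annotated exon. Capitals mark AGGAA or its reverse complement TTCCT, the core that proteins of the ETS family bind, among them the myeloid factor PU.1.
Fcer1g, chr1:171234366-171234599: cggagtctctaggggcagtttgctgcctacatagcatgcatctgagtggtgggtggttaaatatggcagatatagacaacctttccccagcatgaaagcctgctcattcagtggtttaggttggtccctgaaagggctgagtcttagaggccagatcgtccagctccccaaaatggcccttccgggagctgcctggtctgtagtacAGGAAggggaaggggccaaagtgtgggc
Fcer1a, chr1:173227230-173227479: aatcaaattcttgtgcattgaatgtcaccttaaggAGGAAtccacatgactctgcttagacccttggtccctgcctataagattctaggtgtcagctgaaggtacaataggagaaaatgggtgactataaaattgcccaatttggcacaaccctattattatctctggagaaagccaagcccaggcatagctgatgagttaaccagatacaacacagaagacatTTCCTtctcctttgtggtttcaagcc
A match on either strand was present in the 250 bases before the start of all 7 genes, and in 60.3% of the 32851 promoters searched, so the match did not set these genes apart. For Fcgr2b and Fcgr3 none of these bases lay before the first annotated exon, so their matches fell inside the annotated gene. A match is a description of letters and not of a bound site.

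Fcgr2b and Fcgr3 encode nearly the same antibody-binding part. Their longest coding transcripts shared a stretch of 509 bases at 96.5% identity, with an identical run of 129 bases. Of the 752 words of 50 bases in the coding sequence of Fcgr3, 166 (22.1%) also occurred in that of Fcgr2b. The end of the identical run is shown with the bases that follow it, from GENCODE transcripts, and the capital marks the 1 position that differs in this window.
Fcgr2b, coding bases 347 to 446: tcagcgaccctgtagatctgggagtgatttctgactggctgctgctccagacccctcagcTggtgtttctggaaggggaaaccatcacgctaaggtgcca
Fcgr3, coding bases 332 to 431: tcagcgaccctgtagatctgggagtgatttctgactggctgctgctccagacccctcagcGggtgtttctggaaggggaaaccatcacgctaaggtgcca
A read inside the identical run cannot be assigned to 1 of these genes, and how the authors counted such reads is not given in the sources used here. The values of the CD16 and CD32 genes are therefore uncertain to that extent. The annotated antisense gene Gm38204 overlaps exons of Fcgr2b and had 0 reads in every library. Whether counting used strand is not stated.

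The deposited values are log2 values that follow a regularized logarithm, in which the libraries' values are drawn towards the gene's mean. The calculation could be repeated exactly, and the whole reads that give the deposited values were recovered for 1919 of the 1928 genes with values (99.5%), all 7 Fc receptor genes included. The recovered reads, which cover chromosome 1 and the start of chromosome 2 only, summed to 1003916 and 821153 in the WT libraries and to 45643 and 44822 in the ATF4 KO libraries. The ATF4 KO libraries held a read for 341 and 354 genes, against 1732 and 1670 in WT, and their 10 most abundant genes took 47.9% and 49.2% of reads, against 13.3% and 14.1%. By total reads the ATF4 KO libraries had 4.55% and 4.46% of the depth of WT library 1. By the size factors inside the deposited values they had 0.165% and 0.171%. A gene's direction between the genotypes can depend on which of these depths is used, so both are given for each gene. Over all tested genes the median difference, ATF4 KO minus WT, was 1.27 on the log2 scale by size factors and −3.44 by totals. Atf4 lies outside the part of the genome analysed here, so the deletion was not checked.

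Among the 7 genes only Fcer1g, the common gamma chain, had reads in both ATF4 KO libraries, and its share of reads was higher there than in WT. It had 1083 and 982 reads in the WT libraries and 1569 and 901 reads in the ATF4 KO libraries. Raw reads of Fcer1g thus overlapped between the genotypes, although the ATF4 KO libraries were far smaller. Fcer1g took 0.108% and 0.120% of the recovered reads in WT and 3.44% and 2.01% in ATF4 KO, and both ATF4 KO shares lay above both WT shares. The same held for 0.990% of the genes with recovered reads, whereas 70.0% had both ATF4 KO shares below both WT shares. The mean share was 23.9 times as high in ATF4 KO as in WT. At the WT share, 102 reads were expected over the ATF4 KO pair, and the 2470 found were 24.1 times that number (exact 95% Poisson interval 23.2 to 25.1). At the depth of the size factors, 3.92 reads were expected and the ratio was 631 (606 to 656). These intervals cover counting error only. Reads without molecular identifiers are not independent molecules, and such identifiers are not named in the labels.

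On the deposited log2 scale the values of Fcer1g were 10.89 and 10.89 for WT against 14.31 and 13.73 for ATF4 KO, a mean of 10.89 ± 0.0042 against 14.02 ± 0.41 (SD, n = 2 each). The groups did not overlap, and both ATF4 KO values lay above both WT values, as they did for 40.5% of the tested genes. The WT libraries lay much closer together than the ATF4 KO libraries. That difference of 3.13 ± 0.75 (SE) missed the threshold of 0.05 in limma over all 1199 tested genes (Benjamini-Hochberg adjusted p = 0.0564). Limma's voom on the recovered reads called Fcer1g higher on both depths, by 4.53 ± 0.42 (SE) on the log2 scale with library totals (adjusted p = 0.00936) and by 9.25 ± 0.46 (SE) with size factors (adjusted p = 0.0194). With totals, 0.840% of the 1190 tested genes were called higher and 40.4% lower. With size factors, 19.1% were called higher and 5.80% lower. The limma call on deposited values changed when ATF4 KO library 1 was left out (difference 2.84, adjusted p = 3.51e-05) and when ATF4 KO library 2 was left out (3.42, adjusted p = 1.46e-06). With WT library 1 or 2 left out it missed the threshold further (adjusted p = 0.795 and 0.815). In these fits the lone library is assumed to vary like the others.

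**Figure D1:**
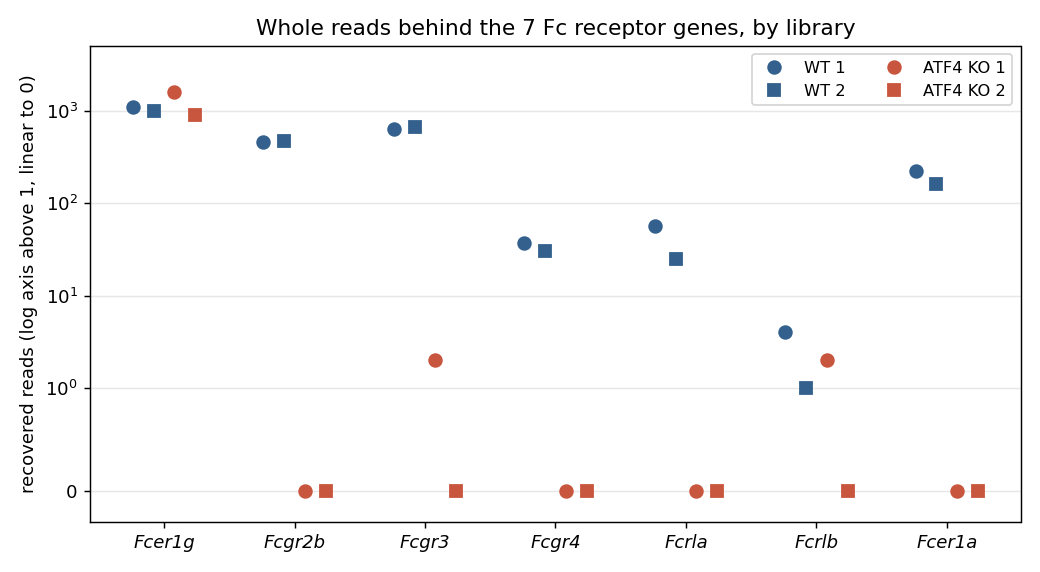
Recovered whole reads (y axis, logarithmic above 1 and linear down to 0) of the 7 Fc receptor genes (x axis) in each of the 4 libraries, WT in blue and ATF4 KO in red, with 1 point per library. Fcer1g had 1569 and 901 reads in ATF4 KO, while the other 6 genes had 4 reads in all in ATF4 KO library 1 and 0 in ATF4 KO library 2.

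The composition of the group does not depend on which depth is chosen, since it is a ratio within a library. In ATF4 KO it still rests on few reads, as the other 6 genes had 4 and 0 reads in libraries 1 and 2. Fcer1g made up 43.6% and 42.1% of the reads of the 7 genes in the WT libraries, and 99.7% and 100% in the ATF4 KO libraries. The gamma chain had 1.73 and 1.48 reads per read of Fcgr3 in WT. In ATF4 KO library 1 it had 784, and in ATF4 KO library 2 Fcgr3 had no read beside 901 reads of Fcer1g. The 6 alpha chains, inhibitory and Fc receptor-like genes together had 1403 and 1350 reads in WT.

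Fcgr3, the activating IgG receptor CD16, had 627 and 665 reads in WT and 2 and 0 reads in ATF4 KO. At the WT share of reads, 64.0 reads were expected over the ATF4 KO pair, so the 2 found were 0.0312 times that number (exact 95% Poisson interval 0.00378 to 0.113). At the depth of the size factors 2.47 reads were expected, and the ratio was 0.809 (0.098 to 2.92), an interval that includes 1. Its deposited log2 values were 4.83 and 5.21 in WT and 5.61 and 3.04 in ATF4 KO. The ATF4 KO values lay on either side of both WT values, and the 2 reads of ATF4 KO library 1 separated them from each other. The difference of −0.70 ± 1.10 (SE) did not pass in limma (adjusted p = 0.619). Without ATF4 KO library 2 it turned to 0.59 (adjusted p = 0.0890), and without ATF4 KO library 1 it was −1.98 (adjusted p = 0.00869). In voom it was −4.84 with library totals (adjusted p = 0.159) and −0.18 with size factors (adjusted p = 0.971).

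Fcgr4, the other activating IgG receptor alpha chain, had 37 and 30 reads in WT and 0 in both ATF4 KO libraries. Over the ATF4 KO pair 3.32 reads were expected at the WT share and 0.126 at the depth of the size factors. A count of 0 allows up to 3 reads over the pair by counting error alone, without the spread between libraries. On that limit the share of Fcgr4 was at least 1.11-fold lower, and by size factors no difference was detectable at this depth. The limit is below the upper end of the exact Poisson interval used for the other ratios. The 3.32 expected reads exceeded it only narrowly, so the lower share of Fcgr4 depends on this choice of limit. Its deposited log2 values of 1.64 and 1.64 in WT and 1.72 and 1.72 in ATF4 KO nevertheless did not overlap. Both ATF4 KO values lay above both WT values for 40.5% of all tested genes. Limma called Fcgr4 higher by 0.08 ± 0.0032 (SE; adjusted p = 0.00225) although no ATF4 KO read lay behind it. With library totals in voom the direction was opposite, at −1.75 (adjusted p = 0.00279). With size factors it was 2.96 (adjusted p = 0.0156). A fitted difference for a gene with 0 reads depends on the small number added before the logarithm and is no measured fold.

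Fcgr2b, the inhibitory receptor CD32, had 456 and 468 reads in WT and 0 reads in both ATF4 KO libraries. At the WT share 45.8 reads were expected over the ATF4 KO pair, so its share was at least 15.3-fold lower by counting error alone. At the depth of the size factors 1.76 reads were expected, which is within what a count of 0 allows. Its deposited log2 values were 4.24 and 4.54 in WT and 2.81 and 2.78 in ATF4 KO, with no overlap. Both ATF4 KO values lay below both WT values for 40.7% of all tested genes. Limma called Fcgr2b lower, with a difference of −1.60 ± 0.14 (SE; adjusted p = 0.00547). Voom with library totals also called it lower (−5.54, adjusted p = 0.00166), and voom with size factors did not (−0.82, adjusted p = 0.101).

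Fcer1a, the IgE-binding alpha chain that is assembled with the gamma chain in mast cells and basophils, had 222 and 161 reads in WT and 0 in both ATF4 KO libraries. The expected numbers over the ATF4 KO pair were 19.0 reads at the WT share and 0.717 at the depth of the size factors. Its share was thus at least 6.33-fold lower by counting error alone, and by size factors a difference was not detectable. The deposited log2 values were 3.14 and 3.07 in WT and 2.62 and 2.60 in ATF4 KO. Limma called Fcer1a lower, with a difference of −0.49 ± 0.044 (SE; adjusted p = 0.00564). The direction turned to 0.28 when each library was centred on its median (adjusted p = 0.00719), a step that raised every difference by 0.77, and to 0.48 in voom with size factors (adjusted p = 0.134). In voom with library totals it was −4.23 (adjusted p = 0.00166).

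The Fc receptor-like genes had few reads. Fcrla had 57 and 25 reads in WT and 0 in both ATF4 KO libraries, where 4.06 were expected at the WT share and 0.149 by size factors. Its share was at least 1.35-fold lower by counting error alone. Its deposited log2 values were 1.75 and 1.71 in WT and 1.81 and 1.81 in ATF4 KO, and limma called it higher by 0.08 ± 0.017 (SE; adjusted p = 0.0375) with no ATF4 KO read. The call was lost without ATF4 KO library 1 (adjusted p = 0.0661) and without ATF4 KO library 2 (adjusted p = 0.0532), and the direction turned in voom with totals (−1.87, adjusted p = 0.143). The processed pseudogene Gm2962 lies within Fcrla on the same strand, outside its exons, and had 56 and 51 reads in WT and 0 and 41 in ATF4 KO.

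Fcrlb had 4 and 1 reads in WT and 2 and 0 in ATF4 KO. Its deposited log2 values of −1.76 and −2.70 in WT and 4.69 and 1.66 in ATF4 KO gave the largest difference among the 7 genes on this scale, 5.40 ± 1.57 (SE), which did not pass (adjusted p = 0.129). The ratio of reads to those expected was 8.07 at the WT share (exact 95% Poisson interval 0.977 to 29.2) and 226 by size factors (27.3 to 815), each resting on 2 reads of ATF4 KO library 1. Without that library the difference was 3.89 (adjusted p = 0.0122), with 0 reads in the remaining ATF4 KO library. Fcrlb passed the filter on low values, at least 1 in at least 2 libraries, only through its ATF4 KO values, so a test of it as higher in ATF4 KO supports nothing.

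**Figure D2:**
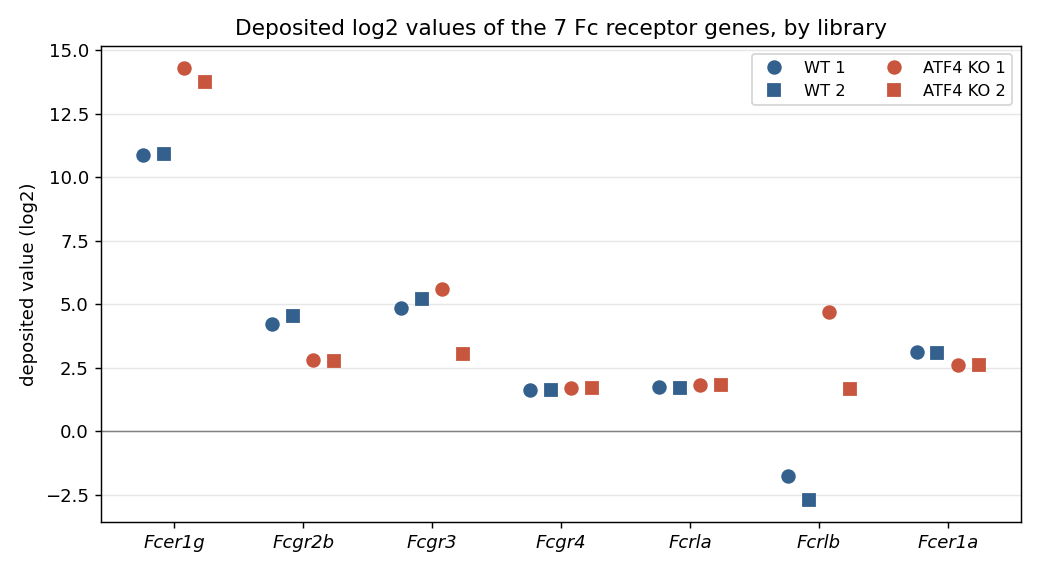
Deposited log2 values (y axis) of the 7 Fc receptor genes (x axis) in each library, WT in blue and ATF4 KO in red. Fcer1g is high in every library, the ATF4 KO values of Fcgr4, Fcrla, Fcgr2b and Fcer1a rest on 0 reads, and the 2 ATF4 KO values of Fcgr3 fall on either side of WT.

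In limma on the deposited values 2 of the 7 genes were called higher and 2 lower, beside 24.6% higher and 22.4% lower among all 1199 tested genes. All 7 passed the filter on low values, Fcrlb only through its ATF4 KO values. The median difference was 0.08 over the 7 genes and 0.02 over all tested genes. In voom with library totals 1 was called higher (Fcer1g) and 3 lower (Fcgr2b, Fcer1a and Fcgr4). Among all 1190 genes tested there, 0.840% were called higher and 40.4% lower. In voom with size factors 2 were called higher (Fcer1g and Fcgr4) and 0 lower, beside 19.1% and 5.80% of all tested genes. At an unadjusted p under 0.05 limma on the deposited values had 3 higher and 2 lower, beside 26.5% and 24.5% of all tested genes. Voom with library totals had 1 higher and 3 lower at that level, beside 1.18% and 55.8%. Voom with size factors had 4 higher and 1 lower (Fcgr2b), beside 34.0% and 12.1%. The direction of Fcer1g and of Fcrlb was the same on all 3 scales, as was that of Fcgr2b and of Fcgr3, while Fcgr4, Fcrla and Fcer1a changed sign.

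**Figure D3:**
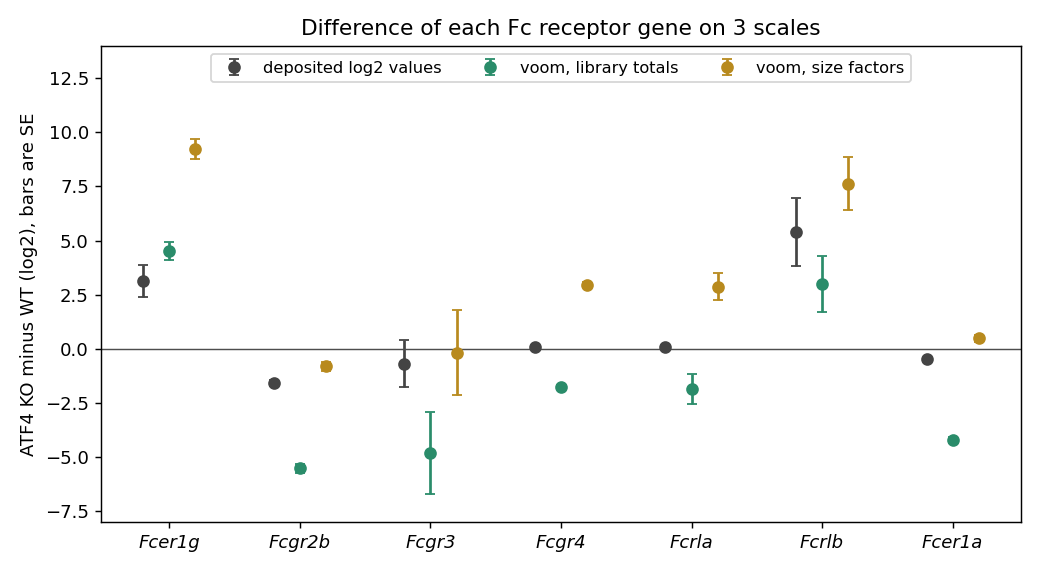
Difference between ATF4 KO and WT (y axis, log2, with standard errors) for each Fc receptor gene (x axis) on the deposited scale and in voom with library totals or size factors. Fcer1g lies above 0 on all 3 scales (3.13, 4.53 and 9.25), and Fcer1a, Fcgr4 and Fcrla change sign between them.

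A count of 0 reads in both ATF4 KO libraries was usual in these data. It was found for 4 of the 7 genes, and for 72.9% of all genes with recovered reads. Among genes with 10 to 99 WT reads over the pair, the class of Fcgr4 and Fcrla, 88.4% of 440 genes had 0 reads in ATF4 KO. Among genes with 100 to 999 WT reads, the class of Fcgr2b and Fcer1a, 73.0% of 411 did. In the class of Fcer1g and Fcgr3, with 1000 to 9999 WT reads, 26.7% of 382 genes had 0 ATF4 KO reads and the median was 2 reads, the number found for Fcgr3. In that class 2 genes, Fcer1g included, had at least the 2470 ATF4 KO reads of Fcer1g. By the lower of its 2 ATF4 KO shares Fcer1g ranked 1 of the 1919 genes with recovered reads, and it ranked 12 and 16 by reads in ATF4 KO libraries 1 and 2 against 258 and 231 in the WT libraries. At least 50 reads in each ATF4 KO library were present for 0.730% of genes (14 genes).

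**Figure D4:**
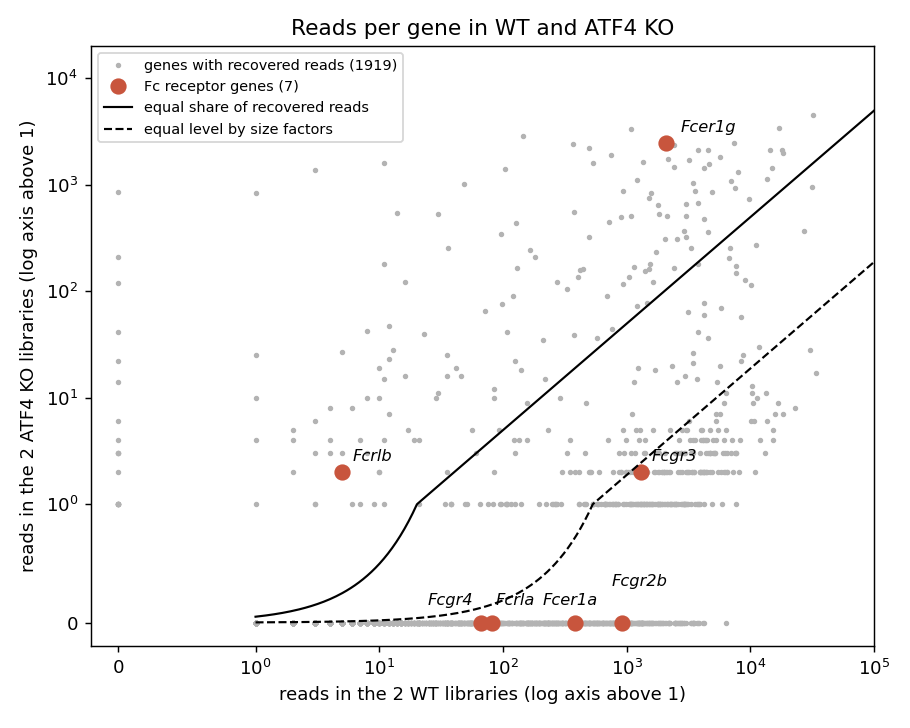
Reads of every gene in the 2 WT libraries (x axis) and the 2 ATF4 KO libraries (y axis), both logarithmic above 1, with the 7 Fc receptor genes in red. The solid line marks an equal share of recovered reads and the dashed line an equal level by size factors. Fcer1g lies above both lines with 2065 WT and 2470 ATF4 KO reads, and 4 of the genes lie on the line of 0 ATF4 KO reads.

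In WT, where depth was sufficient, the levels of the 7 genes were ordered per length of annotated exon. Fcer1g had 1234 and 1368 reads per kilobase of exon per 1000000 recovered reads (874 exon bases). Fcgr3 followed with 359.8 and 466.5 (1736 exon bases), then Fcer1a with 221.6 and 196.5 (998 exon bases) and Fcgr2b with 78.5 and 98.4 (5790 exon bases). Fcrla had 32.5 and 17.5 and Fcgr4 29.3 and 29.1, and these neighbours overlapped, so their order was not resolved. Fcrlb was lowest with 3.10 and 0.948. The other neighbours in this order did not overlap between the 2 libraries. The exon length counts every annotated isoform, and for Fcgr2b it exceeds the longest coding transcript of 3544 bases, so a level per length in Fcgr2b is a low estimate if shorter isoforms prevail. RNA of the gamma chain and of the CD16 and CD32 genes was thus present in the WT libraries of cells sorted as LT-HSCs. In bulk libraries fewer cells of a type and less RNA per cell cannot be told apart.

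The coding genes around the cluster were compared because they share its place on the chromosome. From Gm26620 before Fcrlb up to Fcer1g there were 8 other coding genes. Of the 7 with known reads, 5 had 0 reads in both ATF4 KO libraries, and the highest number was 3 reads over the pair. Pcp4l1, which encodes a relative of Purkinje cell protein 4, had 1820 and 1133 reads in WT and 3 and 0 in ATF4 KO. Tomm40l, a mitochondrial import channel gene, had 232 and 208 in WT and 0 in ATF4 KO. Sdhc, a subunit of succinate dehydrogenase, had 2180 and 1906 in WT and 0 and 2 in ATF4 KO. The reads of Apoa2, the apolipoprotein gene just before Fcer1g, were not recovered. Its deposited log2 values were 9.16 and 9.16 in WT, 14.42 in ATF4 KO library 1 and 9.17 in ATF4 KO library 2. Beside Fcer1a, the olfactory receptor genes Olfr1404 and Olfr418 had 0 reads in WT, and Olfr1404 had 6 reads in ATF4 KO library 2.

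**Figure D5:**
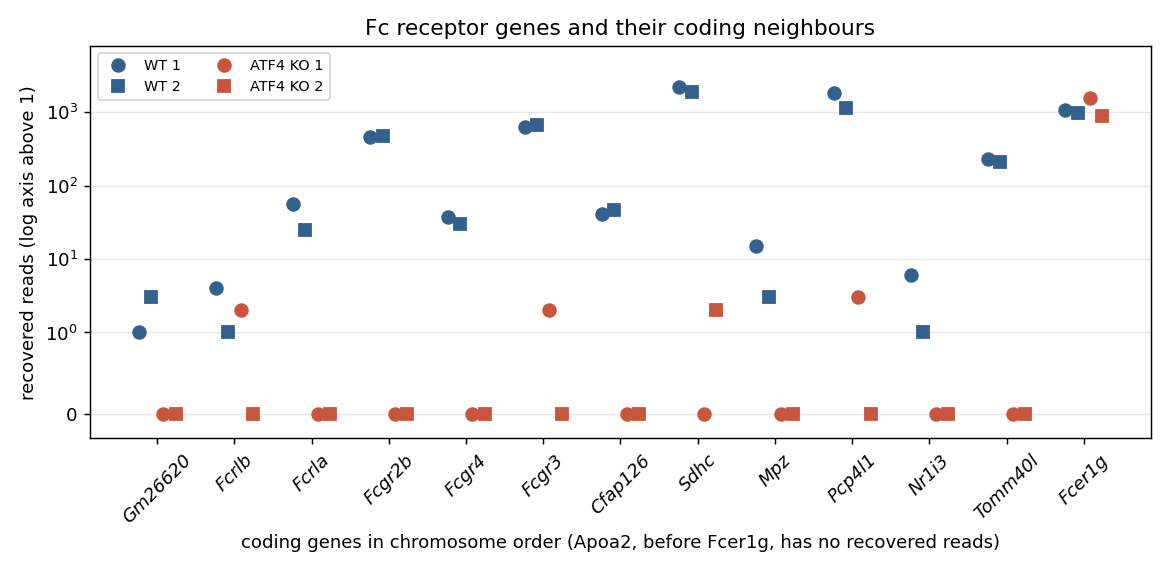
Recovered reads (y axis, logarithmic above 1) of the coding genes from Gm26620 to Fcer1g in chromosome order (x axis, not to scale), with 1 point per library. Fcer1g is the only gene shown with more than 3 reads in ATF4 KO.

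Of 26 genes of Fc receptor signalling fixed as a list, 7 lay in the part of the genome analysed. None passed in limma on the deposited values (0 also at an unadjusted p under 0.05), where 47.0% of all tested genes did. Over the 7 the median difference was −0.13. Inpp5d, the lipid phosphatase SHIP1 that acts downstream of Fcgr2b, had 2990 and 2184 reads in WT and 3 and 0 in ATF4 KO (adjusted p = 0.275). Prkcq, a protein kinase C, had 1140 and 793 in WT and 1 and 0 in ATF4 KO (adjusted p = 0.194). Cd247, the zeta chain gene that is also on the list of T and NK cell markers, had 90 and 46 in WT and 0 in ATF4 KO (adjusted p = 0.168). With library totals in voom 3 of the 7 were called lower, beside 40.4% of all tested genes, and 0 higher, beside 0.840%. At an unadjusted p under 0.05 these were 5 and 0, beside 55.8% and 1.18% of all tested genes. With size factors voom called 0, with 2 higher at an unadjusted p under 0.05, beside 34.0% of all tested genes. Their summed share of reads was 0.943% and 0.830% in WT and 0.00876% and 0.0491% in ATF4 KO, below WT in both libraries, while that of Fcer1g was above it. In ATF4 KO library 2 all reads of the list came from 1 gene. Both ATF4 KO shares lay below both WT shares for 70.0% of genes with recovered reads, so a lower share was usual.

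Other antibody receptors on the list numbered 11, of which 4 were in the table. Pigr, the receptor that carries polymeric antibody across epithelia, had 0 reads in WT and 14 and 0 in ATF4 KO. Fcmr, the IgM receptor, had 14 and 0 reads in WT and 0 in ATF4 KO. Fcrl6 had 5 and 0 in WT and 0 in ATF4 KO, and Fcamr had 0 in all 4 libraries.

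Of 14 genes of phagocytosis and the oxidase, 6 were in the table and 5 were tested. Mrc1, the macrophage mannose receptor, was called higher by 0.08 (adjusted p = 0.00670) with 44 and 25 reads in WT and 0 in ATF4 KO. Slc11a1, a metal transporter of phagosomes, had 66 and 30 reads in WT and 1 and 0 in ATF4 KO.

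Markers of other myeloid cells moved with the group of libraries in which Fcer1g was high. Of 17 such markers 5 were in the table, and their summed share was 0.644% to 0.711% of reads in WT and 1.55% to 3.97% in ATF4 KO. Among them Fcnb, the ficolin made by marrow myeloid cells, had 107 and 258 reads in WT and 1809 and 586 in ATF4 KO. Fcnb was the nearest gene to Fcer1g on the deposited scale (3.15, adjusted p = 0.0734 in limma), and voom with library totals called it higher (6.89, adjusted p = 0.0381). Cxcr2, the neutrophil chemokine receptor, had 133 and 160 reads in WT and 0 in ATF4 KO. Cd244a had 807 and 682 in WT and 0 in ATF4 KO and was called lower (−2.21, adjusted p = 0.00232). Cxcr1 had 0 reads in ATF4 KO as well. The part of other myeloid cells in the level of Fcer1g was not tested.

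The markers of mast cells and basophils were represented by Il1rl1 alone of 8, with 41 and 29 reads in WT and 0 in ATF4 KO, like Fcer1a. Of 10 B cell markers 3 were in the table. The reads of these 3 summed to 926 and 562 in WT and 2 and 0 in ATF4 KO. Of 10 T and NK cell markers 8 were in the table, with 986 and 556 reads in WT and 0 and 1 in ATF4 KO. Of the LT-HSC markers 2 of 8 could be checked. Slamf1 (CD150) had 362 and 186 reads in WT and 0 in ATF4 KO, and Gfi1b, which is shared with the megakaryocyte list, had 1579 and 1225 in WT and 0 in ATF4 KO. In the libraries labelled ATF4 KO a count of 0 was also found for 73.0% of genes in the class of Slamf1 by WT reads and for 26.7% in the class of Gfi1b. At the WT share 27.2 reads of Slamf1 and 139 of Gfi1b were expected over the pair, and by size factors 1.01 and 5.27. Limma called Slamf1 (−0.86, adjusted p = 0.042) and Gfi1b (−3.01, adjusted p = 0.00286) lower, beside 22.4% of all tested genes. Voom with library totals called both lower, beside 40.4% of all tested genes. With size factors voom called Gfi1b lower (−2.40, adjusted p = 0.0302), beside 5.80%, and did not call Slamf1 (0.04, adjusted p = 0.951). Cd34 and Cd48, which a sort of LT-HSCs usually excludes, had 18288 and 15275 and 1983 and 2511 reads in WT, and 9 and 8 and 2 and 2 in ATF4 KO.

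The genes with the most similar deposited values were found by Euclidean distance over the 4 libraries among 897 named coding genes. The nearest to Fcer1g were Fcnb (distance 0.582), Dbi, the acyl-CoA-binding protein (0.934), and Itih2, an inter-alpha-trypsin inhibitor chain of plasma (1.94). Dbi had 2371 and 2134 reads in WT and 703 and 1423 in ATF4 KO, and Itih2 1 and 2 in WT and 468 and 887 in ATF4 KO. These 4 genes were also the named genes among the 10 called higher by voom with library totals, the other 6 being annotated pseudogenes. The nearest to Fcgr2b were Dhx9 (0.0362), Med27 (0.0675) and Rhbdd1 (0.101), and those to Fcer1a were Traf5 (0.0515), B3gnt7 (0.0649) and Bmi1 (0.0664), all 6 with 0 reads in ATF4 KO. Those to Fcgr4 were Mrc1, Cnot11 and Asb1, and those to Fcrla were Ifi211, Rnf208 and Pfkfb2, also with 0. Those to Fcgr3 were Nuak2 (0.265), Soat1 (0.523) and Ly9 (0.534), each with 2 and 0 reads in ATF4 KO. The nearest to Fcrlb, Rbm8a2 (2.84), Mreg (2.86) and Il2ra (4.22), had reads in ATF4 KO library 1 alone. For every member except Fcer1g and Fcrlb, the 3 nearest genes had the same ATF4 KO reads as the member itself.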

How the data were processed

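RNA of sorted LT-HSCs was measured in 4 libraries, 2 per genotype, grouped by sample title. HISAT2 2.2.1, featureCounts, DESeq2 and the build GRCm38 are named, without roles, in the submitters' processing notes. The deposited values are on a log2 scale, and the transform behind them is not given in the sources used here. Its last line is incomplete and was left out.

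The values were reproduced by a regularized logarithm (ridge weight 0.1645, lower limit 0.5 on fitted reads) to within 1e-08, and whole reads were recovered for 1919 of 1928 genes. The recovery was also tested on simulated data. Totals of recovered reads omit the other 9 genes.

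Limma 3.58.1 (R 4.3.3, statmod 1.5.0; trend, robust) was fitted to the deposited values of genes with at least 1 in at least 2 libraries, with Benjamini-Hochberg adjustment over all 1199 and a threshold of 0.05. Voom on recovered reads, chosen after seeing the data, used size factors or totals as depth. Ratios of reads have exact 95% Poisson intervals, and 3 reads over the pair were the limit for 0, which is below the upper end of such an interval. Coordinates are from GENCODE M21, sequence identity from BLAST 2.17.0, and other steps used scipy 1.17.1.

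The members and the 11 gene lists were chosen with earlier results of these data known. Named genes were the members, up to 4 genes of lowest p per list plus any called, the 3 nearest genes by distance per member, and coding neighbours; some of these are not reported here. Alternatives were no filter, a lowest value of 3, no trend, a minimum difference of 1, median centring, a replicate block and each library left out.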

Additional observations from a re-analysis of the deposited data

How the results depend on the processing

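The number of called genes, 563 (295 higher, 268 lower), was 1315 with no filter on low values (1037 higher, 278 lower), 255 with a lowest value of 3 (15 higher, 240 lower), 291 with no trend (28 higher, 263 lower), 203 with a difference of at least 1 (11 higher, 192 lower), 296 in voom with size factors (227 higher, 69 lower) and 491 in voom with totals (10 higher, 481 lower). Median centring gave 648 (478 higher, 170 lower). Leaving out 1 library gave 634 to 884. The cause of these changes was not tested, except that other filters change how many genes are tested.

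Fcer1g kept its direction in all settings. Its difference of 3.13 passed with no trend (adjusted p = 0.0211) and when values of at least 3 were required (adjusted p = 0.0347), as did 3.90 after median centring (adjusted p = 0.0260), 9.25 in voom with size factors and 4.53 in voom with totals. Leaving out 1 library gave 2.84 to 3.42. Its adjusted p ranged from 1.46e-06 to 0.815 over all alternatives.

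Fcgr2b ranged from −1.75 to −1.44 with 1 library left out and missed the threshold at −0.82 in voom with size factors. Centring moved it to −0.82 (adjusted p = 0.0252), and moved Fcgr4 to 0.85 and Fcrla to 0.86, with their calls kept. Fcgr3 ranged from −1.98 to 0.59 with 1 library left out, and turned to 0.08 after centring. Fcgr4 (0.08, adjusted p = 0.0544) and Fcrla (0.08, adjusted p = 0.110) missed the threshold with no trend, and turned to −1.75 and −1.87 in voom with totals. Fcrla missed it at 2.86 in voom with size factors and ranged from 0.06 to 0.10 with 1 library left out. Fcrlb passed at 6.18 after centring (adjusted p = 0.0466) and ranged from 3.89 to 6.92. Fcer1a turned to 0.28 after centring and 0.48 in voom with size factors. The cause was not tested. Of 86 values under the alternatives, 57 kept direction and call or stayed within 1.5 times the count, 10 newly passed the threshold, 6 no longer passed it, 6 reversed and 7 were counts that moved further.

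With the replicate number as a block 510 genes were called (277 higher, 233 lower). Fcer1g kept 3.13 (adjusted p = 0.272). Whether libraries of the same number were paired was not settled. Deviations from the group means correlated at −0.076. With 2 libraries per group this is the same value for both pairs by construction, so it cannot decide pairing. The block changed no call of the 7 genes. Depth limits Fcrlb, Fcgr4 and Fcrla most, for which at most 4.06 reads were expected over the ATF4 KO pair.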

Other observations

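Genes of secreted plasma proteins and of liver metabolism had reads in the ATF4 KO libraries beside Fcer1g. They were noticed after the values were seen and are given without a test of their own. Cps1, the first enzyme of the urea cycle, had 0 and 1 reads in WT and 825 and 0 in ATF4 KO. Igfbp2, an insulin-like growth factor binding protein, had 6 and 5 in WT and 1606 and 0 in ATF4 KO. F5, coagulation factor V, had 23 and 25 in WT and 1012 and 0 in ATF4 KO. Serpinc1, antithrombin, had 11 and 5 in WT and 122 and 0 in ATF4 KO. These 4 genes had reads in ATF4 KO library 1 only, whereas Fcer1g, Fcnb and Itih2 had at least 468 reads in each ATF4 KO library. The part of RNA from other cells in the level of Fcer1g was not tested.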
